A study of Rattus norvegicus with 6 samples.

Results

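The 10 genes described here encode intermediate filament proteins of glia, neurons and the nuclear lamina. They were chosen by symbol from the 19382 genes of the deposited table. The rule held no measured value, but earlier results of these data were known when the members were chosen. They were Gfap, Vim, Nes and Synm (glial), Nefl, Nefm, Nefh and Ina (neuronal) and Lmna and Lmnb1 (lamins). All 10 had a row and all 10 passed the filter on low counts. The data are 6 RNA sequencing libraries of rat brain tissue. The hypoxia-ischemia (HI) group held 3 libraries of 7-day-old SD (Sprague-Dawley) rats exposed to 2.5 h of ischemia with hypoxia, which models injury of the newborn brain, and the control group held 3 libraries labelled as control treatment. No allele, transgene or drug is named for these libraries, and the sampled region, the delay from injury to sampling, the age of the controls and any sham operation are not stated in the labels. The labels also do not say that each library came from its own animal, and p-values then cover only the spread among these libraries, part of which may be technical.

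Intermediate filaments are rope-like polymers of coiled-coil proteins that give cells mechanical strength, and cell types differ in which of them they make. In brain, radial glia and immature astrocytes build filaments from vimentin and nestin, maturing and reactive astrocytes add glial fibrillary acidic protein (GFAP), and synemin co-assembles with these proteins. Neurons build neurofilaments from a light, a medium and a heavy subunit together with alpha-internexin, which support axon calibre, and all nucleated cells line the inner nuclear membrane with lamins. A rise of GFAP and vimentin in astrocytes is a classical sign of injury in the brain, and neurofilament light chain released into fluid is used as a marker of axon damage.

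The 4 glial filament genes rose in HI, and for each of them the lowest HI library exceeded the highest control. The level of Gfap was 10.9-fold and that of Vim 10.4-fold the control level, against 2.13-fold for Nes and 2.21-fold for Synm. None of the 4 neuronal filament genes passed the test, although the highest HI library lay below the lowest control for each of the 4 genes, with fitted folds of 0.418 to 0.645. Of the lamins neither passed. Lmna stood at 1.85-fold with separated groups and Lmnb1 at 1.03-fold with overlapping groups. The test was the quasi-likelihood F test of edgeR over 14959 genes with Benjamini-Hochberg adjustment and a threshold of 0.05. Of all tested genes 6.83% were called higher in HI and 7.04% lower, so 4 of 10 filament genes called higher and 0 of 10 called lower are read against those shares. The groups did not overlap for 42.3% of all tested genes and for 9 of the 10 filament genes. They were separated, with HI higher, for 21.5% of all tested genes and for 5 of the 10 filament genes, and with HI lower for 20.8% and for 4 of the 10. With upper-quartile factors or total counts in place of TMM factors, the HI-higher share of all calls went from 49.2% to 64.3% and 74.7%, and the median log2 fold change of all genes moved by 0.10 and 0.19.

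**Figure D1:**
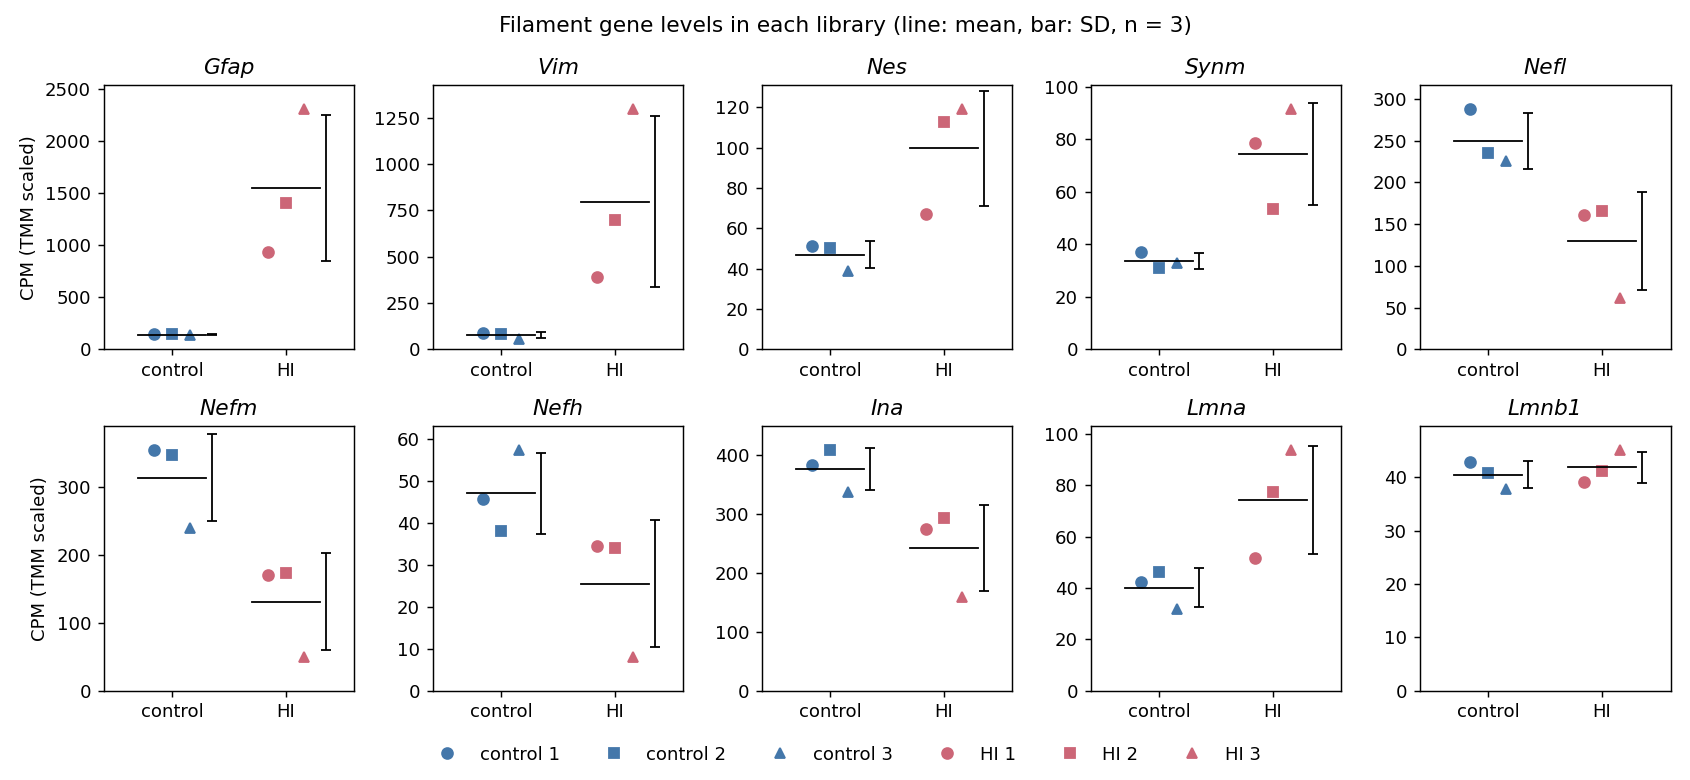
Levels of the 10 filament genes in each library, in CPM scaled by TMM factors on linear axes that start at 0, with symbols for replicates, a line for the group mean and a bar for the SD (n = 3 per group). The glial genes in the first 4 panels and Lmna are higher in every HI library, the neuronal genes are lower in every HI library, and Lmnb1 overlaps.

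RefSeq promoter windows of assembly GRCr8 were at hand for 7 of the 10 genes, all but Nefl, Nefm and Nefh. The windows of the 4 glial genes are shown because these genes rose together. Each is the 250 bases before the RefSeq start of the gene, written 5′ to 3′ on the strand of the gene, at chr10:88361662-88361911 (minus strand) for Gfap, chr17:81577011-81577260 (plus strand) for Vim, chr2:175736338-175736587 (plus strand) for Nes and chr1:130773825-130774074 (minus strand) for Synm. Capitals mark matches to a searched motif on either strand, and no 2 matches overlap.
Gfap: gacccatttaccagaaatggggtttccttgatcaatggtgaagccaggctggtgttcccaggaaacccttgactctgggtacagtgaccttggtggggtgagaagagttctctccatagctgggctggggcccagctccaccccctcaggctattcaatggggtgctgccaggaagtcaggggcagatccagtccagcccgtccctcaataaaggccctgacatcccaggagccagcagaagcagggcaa
Vim: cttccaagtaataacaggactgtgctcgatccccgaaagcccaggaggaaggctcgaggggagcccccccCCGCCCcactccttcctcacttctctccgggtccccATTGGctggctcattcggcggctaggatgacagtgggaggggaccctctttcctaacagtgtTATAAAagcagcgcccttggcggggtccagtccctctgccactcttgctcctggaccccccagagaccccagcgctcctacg
Nes: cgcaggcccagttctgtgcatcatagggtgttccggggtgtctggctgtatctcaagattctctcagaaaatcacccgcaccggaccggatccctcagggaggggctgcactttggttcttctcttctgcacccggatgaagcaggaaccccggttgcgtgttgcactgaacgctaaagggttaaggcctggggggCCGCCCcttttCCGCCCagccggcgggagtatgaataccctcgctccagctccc
Synm: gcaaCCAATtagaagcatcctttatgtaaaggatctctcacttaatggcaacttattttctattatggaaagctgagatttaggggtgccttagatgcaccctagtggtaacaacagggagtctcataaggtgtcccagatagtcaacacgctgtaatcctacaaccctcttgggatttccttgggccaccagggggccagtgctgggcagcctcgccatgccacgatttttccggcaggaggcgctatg
The motifs searched were the STAT site TTCNNNGAA, the AP-1 site TGANTCA, the CRE site TGACGTCA, the NF-Y box CCAAT, the GC box GGGCGG and the TATA box TATAAA. In the window of Vim a GC box, an NF-Y box and a TATA box begin 180, 144 and 82 bases before the start. The window of Nes has 2 GC boxes, 54 and 43 bases before the start, and that of Synm has an NF-Y box 246 bases before the start. None of the searched letters is in the window of Gfap, and a STAT, AP-1 or CRE match was found in 0 of the 7 windows. Bases outside these 250 were not searched. Among 33469 promoter windows of the same length a STAT match was in 7.67%, an AP-1 match in 6.34%, a CRE match in 1.59%, an NF-Y box in 34.0%, a GC box in 30.5% and a TATA box in 12.9%. The windows also differed in base composition. That of Gfap had 57.6% G and C with 1 CpG, that of Synm 49.2% with 5 CpG, that of Vim 62.4% with 11 and that of Nes 60.4% with 14, while the median of all windows was 51.2% and 5 CpG. The windows of Ina, Lmna and Lmnb1 held 70.8%, 56.4% and 74.8% G and C, with 21, 2 and 31 CpG. A match is a description of letters, and the windows come from a newer assembly than the one used for the counts.

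Levels are given as CPM, which are reads per library after scaling for its total and its TMM normalization factor. They are not divided by transcript length, so they compare libraries for 1 gene and not 1 gene with another. Gfap, the main filament protein of mature and reactive astrocytes, stood at 146, 143 and 136 CPM in controls 1, 2 and 3 and at 937, 1403 and 2306 CPM in HI 1, 2 and 3. The controls lay within a narrow band, and the HI libraries were 6.61, 9.90 and 16.3 times the control mean, with HI 3 the highest. Its fitted log2 fold change was 3.45 ± 0.34 (SE, 3 libraries per group, edgeR adjusted p = 0.0196), and 70 of the 14959 tested genes had a higher fitted fold.

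Vim encodes vimentin, a filament protein of radial glia, astrocytes, endothelium, mural cells, fibroblasts and phagocytes. It stood at 88.3, 83.6 and 58.8 CPM in controls 1, 2 and 3 and at 393, 701 and 1298 CPM in HI 1, 2 and 3. The HI libraries followed the same order as for Gfap, at 5.11, 9.12 and 16.9 times the control mean, and control 3 was the lowest library. Its fitted log2 fold change was 3.37 ± 0.46 (SE, edgeR adjusted p = 0.0215), and 81 tested genes had a higher fitted fold.

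Nes encodes nestin, a large filament protein of neural progenitors, of newly formed endothelium and of reactive astrocytes. Its level was 51.2, 50.3 and 39.1 CPM in controls 1, 2 and 3 and 67.1, 113 and 119 CPM in HI 1, 2 and 3. HI 1 lay 1.43-fold and the other HI libraries 2.41-fold and 2.54-fold above the control mean. Nes had a log2 fold change of 1.09 ± 0.24 (SE, edgeR adjusted p = 0.0358). One entry of Nes was not a whole number, and whether it shares reads with another gene was not tested.

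Synm encodes synemin, which cannot form filaments alone and joins those of vimentin, GFAP or desmin. It stood at 37.0, 31.1 and 33.0 CPM in the controls and at 78.5, 53.5 and 91.6 CPM in HI 1, 2 and 3. Its HI libraries did not follow the order of Gfap and Vim, since HI 2 was the lowest of them. Synm had a log2 fold change of 1.15 ± 0.21 (SE, edgeR adjusted p = 0.0266).

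The calls of the glial genes, like those over all genes, changed when 1 library was left out. By edgeR the number of filament genes called higher was 0 without control 1, 0 without control 2 and 0 without HI 2, fits in which 0, 1 and 0 genes were called in all. The log2 fold changes of the glial genes without 1 library lay between 3.05 and 3.70 for Gfap, 2.83 and 3.70 for Vim, 0.93 and 1.30 for Nes and 0.97 and 1.33 for Synm. The count was 2, Gfap and Vim, without control 3 and without HI 3, and 5 without HI 1, when Lmna also passed. Those fits called 1694, 644 and 3689 genes in all.

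**Figure D2:**
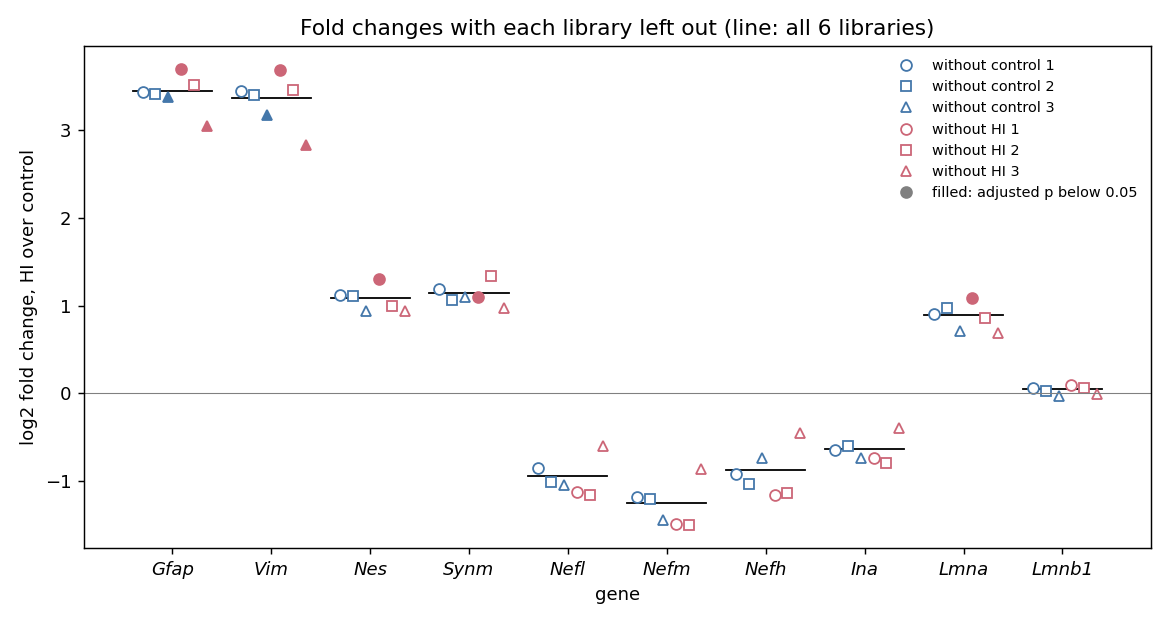
Log2 fold change of each filament gene, HI over control, with each library left out in turn (symbols) and with all 6 libraries (line); filled symbols mark an edgeR adjusted p below 0.05. Gfap and Vim stay above 2.8 in each fit and are called in 3 of the 6, and the neuronal genes are nearest to 0 without HI 3.

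Ratios of reads within a library compare the glial filament genes with each other and need no scaling between libraries. A total of 13 ratios were compared across all members, each by a two-sided exact permutation test over libraries, whose smallest possible p with 3 against 3 is 0.1, so no ratio could pass 0.05. Nes to Gfap was 0.351, 0.351 and 0.287 in controls 1, 2 and 3 against 0.0716, 0.0804 and 0.0517 in HI 1, 2 and 3, with no overlap (exact p = 0.1, adjusted p = 0.163). Nes to Vim was also separated, at 0.221 of the control level (exact p = 0.1, adjusted p = 0.163), and Synm to Vim was 0.231 of it (exact p = 0.1, adjusted p = 0.163). The ratio of Gfap to Vim, at 1.65, 1.71 and 2.31 in controls 1, 2 and 3 against 2.38, 2.0 and 1.78 in HI 1, 2 and 3, overlapped between the groups (log2 difference 0.12, exact p = 0.5, adjusted p = 0.591). Within the HI libraries that ratio was lowest in HI 3, where Vim was highest.

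A list of general astrocyte markers shows what else of that cell type was measured. Of 12 markers, 1 rose and 0 fell, with a median log2 fold change of 0.59 against 0.04 for all tested genes. Here and for each list below, counts that rose or fell are edgeR calls. They stand beside 6.83% of all tested genes called higher and 7.04% called lower. Aqp4, the water channel of astrocyte endfeet, rose 1.94-fold, and the glutamate transporter Slc1a3 differed by 0.32 ± 0.16 (SE) on the log2 scale, short of the threshold (edgeR adjusted p = 0.201). The summed level of the list ranged over 1529 to 2710 CPM among controls and over 2470 to 3298 CPM among HI libraries, and all 12 markers were present. Per read of that list, Gfap was 6.92-fold and Vim 6.35-fold higher in HI, without overlap (exact p = 0.1, adjusted p = 0.163 for both). In bulk tissue, a change in the number of cells of a type and a change in RNA per cell cannot be told apart.

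Vimentin, nestin and lamin A are also made by cells other than astrocytes, whose markers were measured in the same libraries. Of 12 microglia and phagocyte markers 9 rose and 0 fell, with a median log2 fold change of 2.17. Their summed level was 121 to 184 CPM in controls and 402 to 769.7 CPM in HI. Csf1r, the receptor for macrophage growth factors, was 2.35-fold and Gpnmb, a glycoprotein of phagocytes, 16.1-fold higher. Gpnmb alone made up 93.4, 206 and 244 CPM of the sums in HI 1, 2 and 3. Cd68, Tmem119 and P2ry12, named after their values were seen, were not called. Their log2 fold changes were 2.50, 0.47 and -0.13, and P2ry12 was the only lower marker of this list. Of 10 mural cell markers 3 rose and 0 fell, with sums of 240.3 to 325 CPM and 345 to 649 CPM. The smooth muscle protein Tagln rose 32.8-fold, while the log2 fold change of Notch3 was 0.13, short of the threshold. Of 9 endothelial markers 1 rose and 0 fell, with sums of 154 to 214 CPM and 174 to 355 CPM and a median log2 fold change of 1.01. The tight junction gene Cldn5 and the growth factor receptor Kdr, the most abundant of them, did not pass (log2 fold changes of 0.33 and 0.54). Of 9 tested fibroblast and meninges markers 0 were called by edgeR in either direction, with sums of 222 to 523 CPM and 431 to 1253 CPM, and Ogn was under 10 reads in every library. Pdgfra and Igf2, the most abundant of them, differed by -0.37 and 2.50 on the log2 scale, short of the threshold. The median log2 fold change of the 9 tested markers was 1.57, and Pdgfra was the only lower one. Of 10 neural progenitor markers 0 were called, with sums of 409 to 527 CPM and 662 to 962 CPM, and log2 fold changes of 0.64 for Sox2 and 0.76 for Fabp7. The part of these cell types in the rise of Vim and Nes was not tested.

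Choroid plexus and ependymal markers varied widely between libraries of 1 group, and 1 of 10 rose and 0 fell. Their median log2 fold change was 3.12. Their summed level was 48.5, 2148 and 21.0 CPM in controls 1, 2 and 3 and 249, 8066 and 15221 CPM in HI 1, 2 and 3, most of it Ttr, the thyroxine carrier of choroid plexus, followed by the water channel Aqp1. Over the HI libraries this sum, Gfap and Vim had the same order, lowest in HI 1 and highest in HI 3. Over the controls they did not, since control 2 had the highest sum and control 1 the highest Gfap and Vim. The part of these cells in the levels of Gfap and Vim was not tested.

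**Figure D3:**
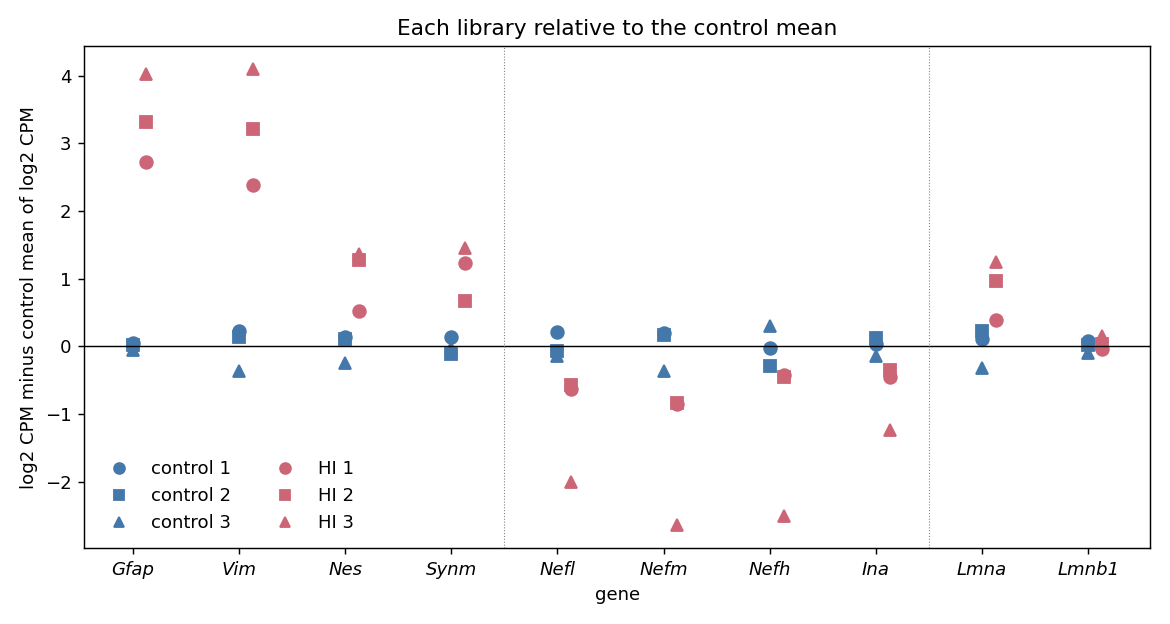
Log2 CPM of each filament gene in each library minus the control mean of log2 CPM, with blue for controls, red for HI and a symbol per replicate. HI 3 is the highest HI library for 6 genes and the lowest for the 4 neuronal genes, and HI 1 and HI 2 nearly coincide for the neuronal genes.

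The neuronal filament genes were lower in each HI library, and HI 3 stood apart. Nefl encodes the light subunit, the core on which neurofilaments assemble. It stood at 288, 235 and 225 CPM in controls 1, 2 and 3 and at 161, 166 and 62.1 CPM in HI 1, 2 and 3. The groups did not overlap, and HI 3 was at 0.386 of HI 1. On the log2 scale Nefl differed by -0.94 ± 0.36 (SE), with a 95% interval from -1.81 to -0.08 before adjustment, which missed the threshold (edgeR adjusted p = 0.114).

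Nefm encodes the medium subunit, whose tail projects from the filament. It stood at 354, 347 and 240.2 CPM in the controls and at 171, 174 and 49.4 CPM in HI 1, 2 and 3. HI 1 and HI 2 lay at 0.545 and 0.553 of the control mean and HI 3 at 0.157. For Nefm the log2 fold change was -1.26 ± 0.46 (SE, interval -2.36 to -0.15, edgeR adjusted p = 0.105).

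Nefh encodes the heavy subunit, which is added to axons late in development. It had the fewest reads of the members, 134 in HI 3. Its level was 45.7, 38.1 and 57.3 CPM in the controls and 34.6, 33.9 and 8.12 CPM in HI. The controls were spread and the gap to HI 1 and HI 2 was small, whereas HI 3 lay far below. For Nefh the log2 fold change was -0.88 ± 0.51 (SE, interval -2.10 to 0.34, edgeR adjusted p = 0.254).

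Ina encodes alpha-internexin, which appears in neurons early and co-assembles with the neurofilament subunits. It stood at 383, 409 and 339 CPM in the controls and at 276, 294 and 159 CPM in HI 1, 2 and 3. HI 3 was again the lowest, at 0.422 of the control mean. For Ina the log2 fold change was -0.63 ± 0.24 (SE, interval -1.20 to -0.06, edgeR adjusted p = 0.109).

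At an unadjusted p below 0.05 by edgeR 3 of the 4 neuronal genes were lower, all but Nefh, as were 17.4% of all tested genes. In either direction 8 of the 10 filament genes met that threshold (5 higher, 3 lower), beside 36.5% of all tested genes (19.1% higher). DESeq2 called 3 lower, namely Nefl, Nefm and Ina, with DESeq2 adjusted p of 0.0368, 0.0212 and 0.0472, beside 13.6% of all genes with a DESeq2 adjusted p. Of the neuronal genes limma-voom called 0 lower, beside 5.47% of all tested genes. The log2 range over the 3 HI libraries was 1.42 for Nefl, 1.81 for Nefm and 2.08 for Nefh, against a median of 0.46 over all tested genes, and it was 0.89 for Ina. Without HI 3 the log2 fold changes were -0.61, -0.86, -0.46 and -0.40 for Nefl, Nefm, Nefh and Ina, with edgeR adjusted p of 0.0633, 0.0638, 0.191 and 0.0996.

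Neurofilaments are built from their subunits in proportions that change during development, and ratios of reads compare them within a library. Nefh to Nefl, at 0.159, 0.162 and 0.255 in controls 1, 2 and 3 against 0.215, 0.204 and 0.131 in HI 1, 2 and 3, overlapped between the groups (exact p = 1.0, adjusted p = 1.0). Nefm to Nefl was 1.23, 1.47 and 1.07 in controls 1, 2 and 3 against 1.06, 1.04 and 0.795 in HI 1, 2 and 3. These groups did not overlap but nearly touched, with a ratio in HI of 0.770 of the control level (exact p = 0.1, adjusted p = 0.163). Ina to Nefl, at 1.33, 1.74 and 1.50 against 1.72, 1.77 and 2.56, overlapped (exact p = 0.2, adjusted p = 0.289), as did Nefh to Nefm (exact p = 0.4, adjusted p = 0.52).

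**Figure D4:**
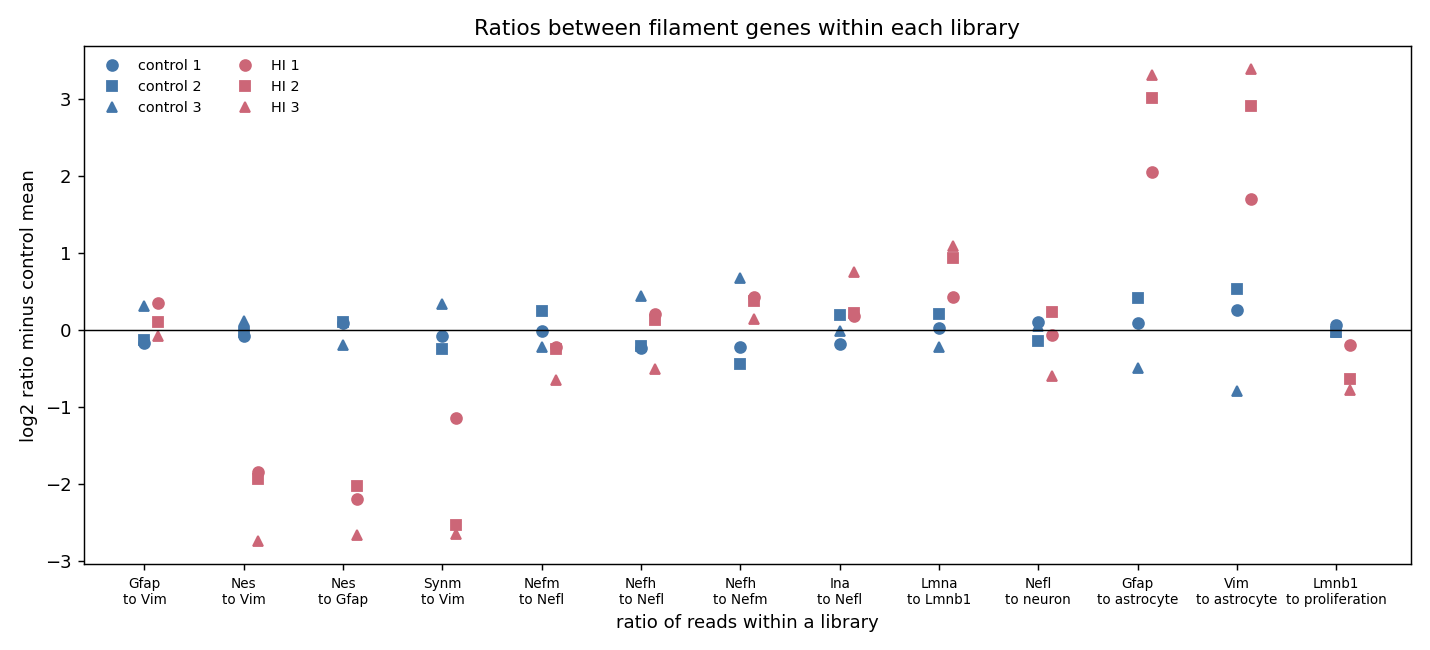
Log2 ratio of reads of 2 filament genes, or of a filament gene to the summed reads of a marker list, in each library minus the control mean of that ratio (blue controls, red HI, symbols for replicates). The ratios of Nes and Synm to Vim lie far below the controls in all 3 HI libraries, those among neuronal subunits lie within 1 of the control mean, and Gfap and Vim lie far above the controls relative to astrocyte markers.

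The general neuron markers show what else of these cells was measured. Of 14 markers 0 rose and 5 fell, with a median log2 fold change of -0.84, and all 14 were present. Their summed level was 12460, 12164 and 10170 CPM in controls 1, 2 and 3 and 7860, 6578 and 4393 CPM in HI 1, 2 and 3. Tubb3, a neuronal beta-tubulin, fell to 0.390 of the control level, and Stmn2, a microtubule regulator of growing axons, had a log2 fold change of -1.04 ± 0.28 (SE) that did not pass (edgeR adjusted p = 0.0527). Per read of that list, Nefl was 0.904 of the control level, with overlap (exact p = 0.8, adjusted p = 0.867). The ratio was lowest in HI 3, at 0.0141 against 0.0193 to 0.0231 in the controls. Of 14 axonal transport and cytoskeleton partners 0 rose and 6 fell, with a median of -0.87. Kif5c, a kinesin motor of neurons, fell to 0.505, the myosin motor Myo5a to 0.432 and the spectrin Sptan1 to 0.566 of the control level.

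Cerebral cortex markers fell in 5 of 10 cases and rose in 0, with a median log2 fold change of -1.98. Their sums were 2418, 2901 and 953 CPM in controls 1, 2 and 3 and 399 to 436 CPM over the HI libraries. Mef2c, among the most abundant of them, fell to 0.107 of the control level. Control 3 had the lowest sum of the controls, and it was also the lowest control for Nefl, Nefm and Ina, at 225, 240.2 and 339 CPM, and the highest for Nefh, at 57.3 CPM. Of 13 markers of brainstem, midbrain and hypothalamus 4 could be tested and 0 were called, with a median log2 fold change of 2.44 over the 4. The sums of this list were 2.43 to 7.72 CPM among controls and 12.6 to 37.0 CPM among HI libraries. Hoxb2, En1, En2 and Pax7 were under 10 reads in every library. The hypothalamic transcription factor Otp stood at 2.57, 0 and 0.075 CPM in controls 1, 2 and 3 and at 19.3, 2.63 and 6.42 CPM in HI 1, 2 and 3, and Sim1 at 1.97, 0 and 0.075 CPM and at 12.5, 3.86 and 2.85 CPM. Both were highest in HI 1. The brain region in each library was not given, and its part in the neuronal levels was not tested. Of 10 oligodendrocyte markers 0 rose and 3 fell, with sums of 704 to 1062 CPM and 484 to 609 CPM. Mbp, a myelin protein, fell to 0.288 of the control level and Cnp had a log2 fold change of 0.03.

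Lamins are present in glia and neurons alike. Lmna encodes lamins A and C, which stiffen the nucleus and are abundant in mesenchymal and vascular cells. It stood at 42.5, 46.2 and 31.7 CPM in controls 1, 2 and 3 and at 51.8, 77.4 and 93.7 CPM in HI 1, 2 and 3. HI 1 was close to control 2, at 1.12 times its level, and HI 3 was the highest. Lmna differed by 0.89 ± 0.25 on the log2 scale (SE, interval 0.30 to 1.48), which missed the threshold (edgeR adjusted p = 0.0578). In 4 of 15 alternatives it was called, with upper-quartile factors (edgeR adjusted p = 0.0478), with total counts (edgeR adjusted p = 0.0358), by DESeq2 (DESeq2 adjusted p = 0.00992) and without HI 1 (edgeR adjusted p = 0.0202).

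Lmnb1 encodes lamin B1, a farnesylated lamin of nearly all nuclei that is lost in senescent cells. It stood at 42.8, 40.9 and 37.7 CPM in the controls and at 39.2, 41.3 and 45.1 CPM in HI 1, 2 and 3. The groups overlapped throughout, with a log2 fold change of 0.05 ± 0.11 (SE, edgeR adjusted p = 0.775) and a 95% interval from -0.22 to 0.31. The ratio of Lmna to Lmnb1 was 0.993, 1.13 and 0.839 in controls 1, 2 and 3 against 1.32, 1.88 and 2.08 in HI 1, 2 and 3, with no overlap (exact p = 0.1, adjusted p = 0.163).

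Proliferation markers summed to 209 to 227 CPM among controls and 243 to 421 CPM among HI libraries, and 1 of 12 rose and 0 fell. Top2a and Pcna, of DNA replication, differed by 0.34 and 0.47 on the log2 scale, short of the threshold. The median log2 fold change of the 12 was 0.69. Relative to that list Lmnb1 was at 0.689 of the control level (exact p = 0.1, adjusted p = 0.163). Among 19 lamina partners and processing genes 3 rose and 0 fell, with a median log2 fold change of -0.14. Tmpo, a lamin-binding protein of the nuclear envelope, rose 1.49-fold, Zmpste24, the protease that matures lamin A, 1.45-fold and Tor1aip1, a torsin cofactor, 1.79-fold. Fnta, a farnesyltransferase subunit, differed by 0.32 ± 0.09 (SE) on the log2 scale, short of the threshold (edgeR adjusted p = 0.067).

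**Figure D5:**
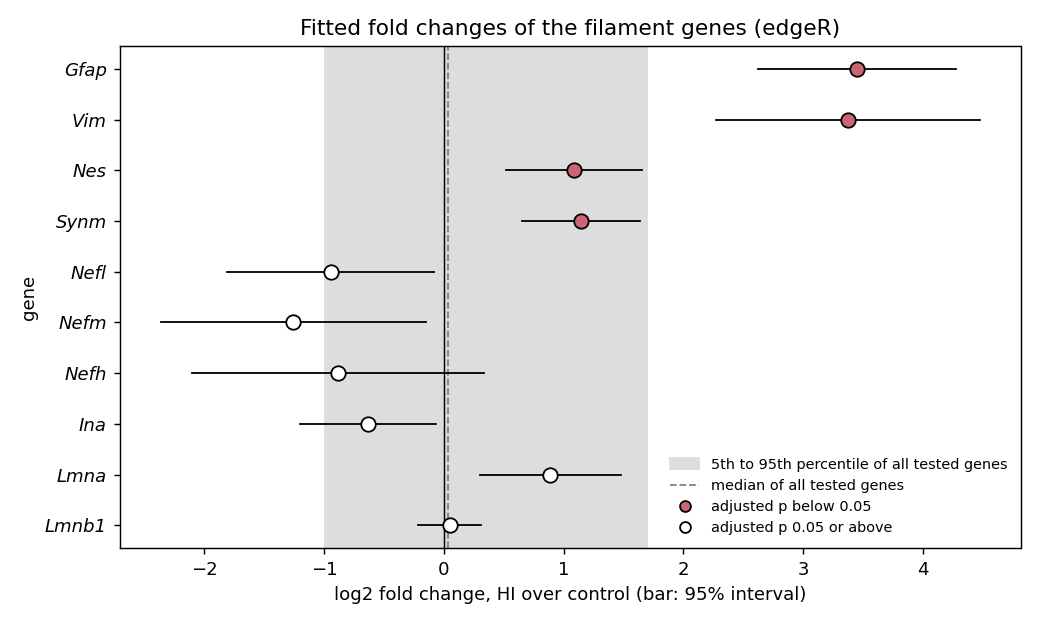
Fitted log2 fold change of each filament gene, HI over control, with its 95% interval before adjustment; filled points have an edgeR adjusted p below 0.05, and the grey band spans the 5th to 95th percentile of all tested genes. Gfap and Vim lie beyond the band, Nes and Synm within it, and Nefm at -1.26 just below it.

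The filament family has many members beyond these 10. Of 27 further filament genes with a row 14 could be tested, 1 rose and 0 fell, with a median log2 fold change of -0.03, and 9 keratins were under 10 reads in every library. Krt18, a keratin of simple epithelia, rose from 5.98, 5.82 and 3.29 CPM in the controls to 12.04, 25.4 and 45.4 CPM in HI 1, 2 and 3. Des, the desmin of muscle and mural cells, averaged 1.05 ± 0.46 CPM over the controls and 4.60 ± 3.06 CPM over HI (SD, n = 3 per group) and missed the threshold (edgeR adjusted p = 0.0581). Lmnb2, the second B-type lamin, and Iffo2 differed by -0.30 and -0.75 on the log2 scale, short of the threshold.

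Small heat shock proteins keep filaments from aggregating, and linkers tie filaments to junctions. Of 15 filament linkers and chaperones 4 rose and 2 fell, with a median log2 fold change of 0.45. Hspb1 stood at 1.74, 1.84 and 1.20 CPM in the controls and at 11.5, 38.9 and 46.2 CPM in HI 1, 2 and 3, a rise of 20.1-fold. Hspb8 rose 5.78-fold and its partner Bag3 2.92-fold, and Jup, plakoglobin of cell junctions, fell to 0.652 of the control level. Cryab, a chaperone of desmin and GFAP, named after its value was seen, also rose, with a log2 fold change of 1.92. Of 14 kinases, proteases and modifiers of filaments 0 rose and 3 fell, with a median of -0.10. The genes that fell included Cdk5, a neurofilament kinase, at 0.725 and the calpain Capn1 at 0.570 of the control level, while Cdk5r1, the activator of Cdk5, did not pass (log2 fold change -0.78, edgeR adjusted p = 0.0531).

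Of 20 regulators of glial filament genes 2 rose and 0 fell, beside 6.83% and 7.04% of all tested genes, with a median log2 fold change of 0.23. Stat3, a transcription factor that acts on Gfap downstream of cytokines, stood at 57.9, 57.8 and 70.0 CPM in the controls and at 95.3, 147 and 161 CPM in HI 1, 2 and 3, and rose 2.17-fold. Osmr, the oncostatin M receptor, rose 6.27-fold. Notch2 and the nuclear factor Nfib differed by 1.49 and -1.07 on the log2 scale, short of the threshold (edgeR adjusted p = 0.0603 and 0.0614).

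Among 14553 genes with a mean of at least 1 CPM, those whose log2 CPM followed Gfap most closely over the 6 libraries included Tmed10, Oas1g, Isy1 and Mrvi1, with Pearson r of 0.996 to 0.997. Oas1g had 0 CPM in all controls, and 3 of its entries were not whole numbers. For Nefl they were RGD1305455, Tmem266, Spred2, Samd8 and LOC103690061, with r of 0.995 to 0.997, and none of these 5 passed the test (edgeR adjusted p from 0.132 to 0.224). The points are 6 libraries in 2 groups, and these values are a description of likeness.

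Reads per library came to between 13922663 and 14927469, and a filament gene had between 134 and 38069 reads in a library, and 3 reads amount to 0.182 to 0.227 CPM. Y-linked genes had 1356 reads in control 3, 1715 in HI 2 and 1824 in HI 3 and at most 3 in the other libraries. Among the libraries without such reads the log2 difference, HI minus control, was 2.70 for Gfap, 2.19 for Vim, 0.40 for Nes and 1.21 for Synm, and among those with them 3.73, 4.02, 1.57 and 1.08. For Nefl, Nefm, Nefh and Ina it was -0.70, -1.04, -0.27 and -0.52 without and -1.15, -1.37, -1.79 and -0.65 with such reads, and for Lmna and Lmnb1 0.23 and -0.09 without and 1.43 and 0.19 with them. Each value has a lone library on 1 side. With these reads as a covariate Gfap and Vim passed and Nes and Synm did not (edgeR adjusted p = 0.029, 0.0443, 0.0958 and 0.0527).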

How the data were processed

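Total RNA of brain tissue was extracted with TRIzol and a SMARTER mRNA-Seq kit was used for library preparation, per the labels' protocols. HISAT2 2.1.0, SAMtools 1.10, StringTie 2.2.1 and assembly Rnor 6.0 are named per the submitters' processing notes. The authors deposited estimated counts per gene, unscaled, 1 column per library. How reads were counted, on which annotation and whether by strand, is not stated in the sources, and isoforms are not separated. Of all entries 8.87% were not whole numbers.

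Counts were rounded, filtered with filterByExpr (minimum count 10), scaled by TMM and tested with edgeR 4.0.16 (R 4.3.3, limma 3.58.1) over all genes, group as the only term, two-sided. SE was derived from the F statistic. Ratios used reads plus 0.5. The model was also run on simulated counts that gave every gene the same dispersion. That run does not address how calls change when a library is left out. No 2 libraries were duplicates. Alternatives were other scalings, filters, thresholds, DESeq2 1.42.0, limma-voom, a replicate block, a covariate of Y-linked reads and leaving out each library.

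The members and lists were chosen with earlier results of these data known. Named were all members, the 4 genes of smallest p per partner list, the 2 most abundant per marker list and the 5 genes most like Gfap and Nefl, except 4 genes that are not reported here. Of 248 list entries 242 had a row, 3 through older symbols.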

Additional observations from a re-analysis of the deposited data

How the results depend on the processing

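The log2 fold changes of 9 of the 10 filament genes kept their sign in all 15 alternative fits, and Lmnb1 did so in 13, with -0.035 without control 3, -0.0082 without HI 3 and its highest value, 0.245, with total counts. Over the fits without 1 library Lmnb1 ranged from -0.035 to 0.088. The number called higher, 4, became 2 with Y-linked reads as a covariate, 0 at a threshold of 0.01 (5 at an unadjusted p below 0.05 by edgeR, as were 19.1% of all tested genes) and 0 to 5 when 1 library was left out. The number called lower, 0, became 3 by DESeq2 and was 0 in each fit without 1 library. Over all genes edgeR called 2074, DESeq2 4200, limma-voom 1371, edgeR with Y-linked reads as a covariate 774, and edgeR 0 at a threshold of 0.01 and 4366 at 0.1. Without 1 library it called 0 to 3689, with 3962 or more at an unadjusted p below 0.05. The cause of these changes was not tested, except that a stricter threshold leaves fewer calls by construction.

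The labels do not say whether the replicate numbers pair the libraries. Deviations from the group means correlated at 0.239, 0.0731 and -0.146 for numbers 1, 2 and 3. Between libraries of unlike number they correlated at -0.34 to 0.317. With 3 libraries per group these values cannot settle whether the numbers pair libraries. With the replicate number as a block 3 filament genes were called higher, 0 lower and 1723 genes in all. Of 104 alternative values of the 13 ratios 101 kept their sign. Nefh to Nefl, with a log2 difference of -0.06, ranged from -0.19 to 0.16 and Nefl to neuron markers, at -0.15, from -0.34 to 0.083 when 1 library was left out. With 3 libraries per group the ratios cannot pass a threshold of 0.05. The medians of all 19 lists moved by less than the spread between controls with DESeq2 size factors.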
